A study of Mus musculus with 22 samples.

Results

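The comparison described here sets spleens of diseased against spleens of non-diseased mice at 1 genotype and 1 stimulus. The 6 mice, of 22 in the series, were chosen by their titles: 3 labelled Tg_KO_D_I and 3 labelled Tg_KO_nD_I. All 6 overexpressed cyclin D1 from a transgene, had Bim deleted in their B cells, and received sheep red blood cells (SRBC) and irradiation. The 3 diseased mice are labelled as having developed MCL, and disease was scored by histopathology. The 3 others are labelled as free of disease. Beside them stand 3 irradiated mice with the transgene and intact Bim (Tg_nD_I), all free of disease, and, under SRBC alone, 3 diseased and 2 non-diseased Bim-deleted mice (Tg_KO_D_A and Tg_KO_nD_A). Every mouse of the series carried the cyclin D1 transgene and received SRBC, so neither has a control without it here. The labels name neither the promoter of the transgene, nor the Cre driver or the allele of the Bim deletion, nor the age, sex or radiation dose of the mice. RNA came from whole frozen spleen, 1 array per mouse, and the number of arrays limits the precision. In whole tissue, fewer cells of a type and less RNA per cell cannot be told apart.

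Cyclin D1 drives the passage of cells from G1 into DNA synthesis through the kinases Cdk4 and Cdk6, and its overexpression marks mantle cell lymphoma, a tumour of mature B cells. Bim, the product of Bcl2l11, is a BH3-only protein that binds BCL2 and its relatives and sets off mitochondrial cell death, and in B cells it removes cells after excessive or failed antigen receptor signalling. Ionising radiation breaks DNA and activates p53, which arrests or kills damaged lymphocytes and depletes the spleen of them. SRBC are a classical antigen that raises germinal centres in the spleen.

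Values are the authors' deposited log2 intensities. A gene is called near background in a group when every mouse of it lies under the 60th percentile of its own array, at 6.61, and the array median was 6.55. The B cell marker Cd79b, a subunit of the B cell receptor, was strong in all 6 spleens. It stood at 12.64, 12.78 and 12.83 with disease and at 12.60, 12.30 and 12.69 without. The 13 measured pan-B cell markers were higher in 7 and lower in 6, with a median difference of 0.01 and 0 past the test. Of the 13 markers 1 was near background in both groups.

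Diseased mouse I_1 stood apart from the other 8 irradiated mice. Its array correlated with theirs at 0.949 to 0.963, whereas the others correlated with each other at 0.974 to 0.991. In it 120 features lay more than 1 log2 unit below all other irradiated mice, against 0 to 3 such features in each of the others. The sex-linked genes split the mice in a way that partly follows disease. Eif2s3y, which is on the Y chromosome, was at 7.96, 8.33 and 8.16 in the non-diseased mice and at 8.43 in diseased I_2, but at 6.42 and 6.53 in diseased I_1 and I_3. Xist, expressed from an inactive X chromosome, was at 6.48, 6.49 and 6.45 in the non-diseased mice and 6.39 in diseased I_2, but at 7.52 and 8.63 in diseased I_1 and I_3. Of the 3 diseased mice only I_2 therefore shared the sex-linked pattern of the non-diseased mice, and its value is given beside each main result.

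Disease under irradiation came with higher expression of a small set of genes and no detected fall. Of 20463 features 12 were higher in diseased mice at a limma adjusted p under 0.05 (0.0586% called) and 0 were lower (0% called). An unadjusted p under 0.05 was reached by 943 higher (4.61%) and 821 lower features (4.01%), 1764 in all (8.62%) against 1023 expected with no difference. Over all 20463 features the median difference was -0.0028, with 9866 higher (48.2%) and 10597 lower. Of the 12 called features 5 exceeded 2-fold. The 9 named genes were Cyp11a1, Wdfy1, Twsg1, Cdk14, Atxn1, Krt18, Zcchc17, Plin3 and Tbc1d22a, and the other 3 features were probes with no gene listed. In all 12 the lowest diseased mouse lay above the highest non-diseased mouse, as it did in 1345 features of 20463 (6.57%). An exact two-sided permutation test of 3 against 3 mice gives 0.1 for each of them, the smallest p its 20 splits allow.

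The count rested on particular mice. It was 0 without diseased I_1 (1236 features at an unadjusted p under 0.05), without non-diseased I_1 (1440) or without non-diseased I_3 (1282), 5 without non-diseased I_2, 41 without diseased I_2, and 0 when the 6 mice were fitted alone (1607). All 9 named genes kept their direction in each of 18 alternatives, but with groups that do not overlap, leaving out mice could not turn it. The call was lost in 13 of the 18 for Tbc1d22a, 10 for Zcchc17, 9 for Cdk14 and 6 each for Atxn1 and Krt18. For Plin3, Twsg1 and Wdfy1 it was lost in 5 each, and for Cyp11a1 in 4.

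Cyp11a1, Wdfy1 and Twsg1 each rose by more than 1 log2 unit, and their products act in steroid synthesis, endosomal signalling and the modulation of a secreted growth factor. Cyp11a1 encodes the mitochondrial enzyme that cuts the side chain of cholesterol, the first step of steroid hormone synthesis. It was at 7.65, 7.36 and 8.11 in the diseased mice and at 6.56, 6.77 and 6.56 in the non-diseased mice. The non-diseased mice lay close to background, and all 3 diseased mice, I_2 included, were clear of it. The difference was 1.08 ± 0.13 (SE), or 2.11-fold, with a limma adjusted p of 0.0132.

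Wdfy1 encodes an endosomal FYVE-domain protein that links Toll-like receptors to their adaptor. It was at 9.03, 8.75 and 8.40 in the diseased mice and at 7.55, 7.71 and 7.73 in the non-diseased mice, a gap larger than the spread in either group. It rose 2.09-fold (log2 difference 1.06 ± 0.14, limma adjusted p = 0.0137). Twsg1 encodes twisted gastrulation, an extracellular binder of bone morphogenetic proteins. It was abundant in every mouse, at 10.74, 10.40 and 10.22 with disease and at 8.92, 9.55 and 9.17 without. It rose 2.36-fold (1.24 ± 0.17, limma adjusted p = 0.0142).

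The other 6 rises were smaller. Cdk14, a cyclin-dependent kinase that pairs with cyclin Y in Wnt signalling, was at 8.02, 8.20 and 8.13 against 7.48, 7.34 and 7.45. It rose 1.62-fold (limma adjusted p = 0.0296), with diseased I_2 the highest mouse. Atxn1, a transcriptional co-repressor that partners Capicua, was at 7.66, 7.61 and 7.40 against 7.01, 6.92 and 6.91. It rose 1.53-fold (limma adjusted p = 0.0137). Krt18, a keratin of simple epithelia, was near background in non-diseased mice, at 6.55, 6.55 and 6.48, and stood at 7.05, 7.28 and 6.92 in diseased mice. Its rise of 0.55 ± 0.08 (limma adjusted p = 0.0259) is limited by that background.

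Plin3, a coat protein of lipid droplets, was at 8.11, 8.21 and 8.08 against 7.55, 7.80 and 7.69, which is 1.37-fold (limma adjusted p = 0.0137). Zcchc17, a zinc-finger RNA-binding protein, was at 7.999, 7.82 and 7.88 against 7.45, 7.40 and 7.49, also 1.37-fold (limma adjusted p = 0.0390). Tbc1d22a, of the TBC family that acts on Rab GTPases, was at 10.27, 10.07 and 10.05 against 9.67, 9.78 and 9.58. It rose 1.37-fold too (limma adjusted p = 0.0390). These genes were separated by narrow but complete gaps, with SDs within a group of at most 0.13.

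The largest called difference belonged to a probe with no gene listed, ILMN_1232265. It was at 10.82, 9.60 and 10.06 in diseased and at 7.52, 8.02 and 7.06 in non-diseased mice, which is a 6.18-fold rise (2.63 ± 0.33, limma adjusted p = 0.0132). The 3 transgene-only irradiated mice were at 7.81, 7.45 and 7.41, inside the range of the non-diseased mice.

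**Figure D1:**
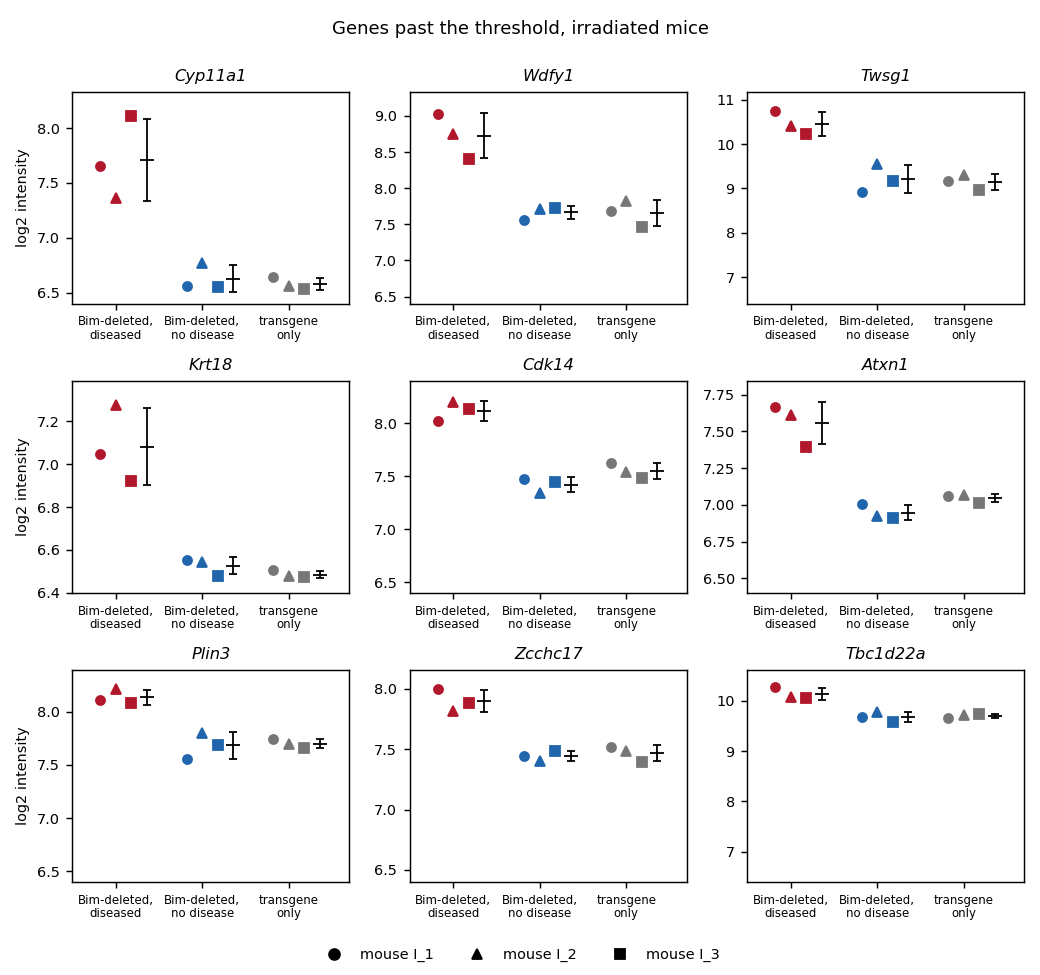
Log2 intensity of the 9 named genes past the threshold in each of the 9 irradiated mice, grouped as Bim-deleted diseased, Bim-deleted without disease and transgene only, with the group mean ± SD (n = 3) beside the points. In every panel the 3 diseased mice lie above the other 6; in Krt18 and Cyp11a1 the other mice lie near the array median of 6.55.

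Other probes of these genes measured less. A second Cyp11a1 probe differed by 0.31, at 7.06, 6.56 and 6.97 against 6.61, 6.54 and 6.54, with diseased I_2 inside the non-diseased range. Another Cyp11a1 probe stayed at background. A second Wdfy1 probe was above background in diseased I_1 and I_3 only and differed by 0.22. A second Zcchc17 probe differed by 0.03, with overlapping groups (7.06, 6.85 and 6.73 against 6.78, 6.90 and 6.88), so the Zcchc17 rise rests on 1 probe. The other Twsg1 and Cdk14 probes were at background in every irradiated mouse.

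No gene fell past the threshold. The 5 falls with the smallest p were Frat1, Arel1, Tmem108, Rexo1 and Traf2, and none passed. Frat1, which keeps the kinase GSK3 from beta-catenin, was at 6.66, 6.62 and 6.64 in the diseased and at 6.95, 6.85 and 6.98 in the non-diseased mice, a difference of -0.28 (limma adjusted p = 0.0624). Tmem108 had the largest difference of the 5, at 6.49, 6.99 and 7.15 against 7.91, 7.53 and 8.05 (-0.96 ± 0.21, limma adjusted p = 0.171). Arel1, a ubiquitin ligase that degrades antagonists of the inhibitors of apoptosis, was 0.42 lower (limma adjusted p = 0.129). Traf2, an adaptor of TNF receptors, was 0.19 lower (limma adjusted p = 0.171) and Rexo1 0.24 lower (limma adjusted p = 0.171).

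By size alone, and chosen after their values were seen, the largest named falls were Slpi and Ighg1. Slpi, a secreted inhibitor of leukocyte proteases, was at 8.03, 11.73 and 10.53 in diseased and at 12.89, 12.83 and 12.48 in non-diseased mice. The groups did not overlap, but diseased I_1 lay far below I_2 (-2.64 ± 0.67, limma adjusted p = 0.240). The transgene-only irradiated mice were at 11.32, 11.93 and 10.81, all below the non-diseased Bim-deleted mice. Ighg1, the constant region of an IgG heavy chain, was at 6.71, 9.27 and 7.23 against 11.56, 9.63 and 9.59 (-2.53 ± 1.20, limma adjusted p = 0.594). It was low in diseased I_1 and I_3, while I_2 lay close to the non-diseased mice.

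Among the genes outside the threshold with small p, 6 were picked after their values were seen, passing over others with like or smaller p. Plscr1, an interferon-induced phospholipid scramblase, was at 9.52, 8.71 and 9.17 against 7.93, 8.07 and 7.77 (1.21 ± 0.21, limma adjusted p = 0.0625). It was as much higher under SRBC alone, by 1.23. Ebi3, a subunit of heterodimeric cytokines made by activated B cells and dendritic cells, was at 9.63, 9.01 and 8.63 against 7.56, 7.53 and 7.66 (1.51 ± 0.30, limma adjusted p = 0.129). Nfkbid, a nuclear IkB protein needed for B-1 cell development in mice, was at 10.42, 10.17 and 9.78 against 8.82, 8.74 and 8.96 (1.28 ± 0.28, limma adjusted p = 0.171). Sp140 and Sp110, of the Sp100 family of nuclear body proteins, were 0.99 and 0.34 higher (limma adjusted p = 0.171 each). Clic4, an intracellular chloride channel protein, was 0.75 higher (limma adjusted p = 0.0999). In each of these 6 genes the groups did not overlap.

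The 22 genes that led the disease comparison pooled over all stimuli, which included these 6 mice, give a description of how far that pattern held among irradiated mice. Of them 1, Twsg1, passed here (0.0586% of all features were higher by the test), 11 were higher and 11 lower. In 8 the diseased mice lay all above (6.57% of all features) and in 8 all below the non-diseased mice (6.68%), and since the choice of genes used these mice, nothing is read from these shares. Of the 8 above, Tnfrsf19 and AF067061 were separate only by a margin at background level. Zbtb32, a transcriptional repressor of lymphocytes that is high in B-1 cells, was at 11.35, 8.48 and 10.27 against 7.93, 7.46 and 6.98 (2.58 ± 0.54, limma adjusted p = 0.163). Diseased I_2 was the lowest of the diseased mice and lay close to transgene-only mouse I_2, at 8.32. A second Zbtb32 probe differed by 0.41, at 7.39, 6.62 and 6.94 against 6.61, 6.58 and 6.54. On it diseased I_2 lay barely above the non-diseased mice and below transgene-only I_2, at 6.64. Ackr2, a receptor that scavenges inflammatory chemokines, was at 9.72, 8.11 and 8.86 against 7.67, 7.21 and 7.18 (1.54 ± 0.38, limma adjusted p = 0.231), again with I_2 lowest among the diseased. C130026I21Rik, a relative of the Sp100 family, was at 10.94, 10.02 and 10.41 against 7.78, 8.74 and 7.10 (2.58 ± 0.48, limma adjusted p = 0.0999).

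In 4 of these genes diseased I_2 was at background with the non-diseased mice. Tnfrsf19, a TNF receptor family member, was at 8.44, 6.53 and 7.57, AF067061 at 9.41, 6.59 and 8.39, Tcstv1 at 8.99, 6.52 and 7.76, and 1810046K07Rik at 8.48, 6.54 and 8.54. All non-diseased and transgene-only irradiated mice lay between 6.45 and 6.64 for these genes. Because AF067061 and Tcstv1 have closely similar sequences, their probes may read each other's transcripts. The mouse without signal is the diseased mouse with the sex-linked pattern of the non-diseased mice. Transgene-only I_1 and I_3, which had the sex-linked pattern of diseased I_1 and I_3, also lay between 6.45 and 6.64 for these genes. The part of sex in these results was not tested beyond the 2 covariate fits in the closing part. Rap1gap, which switches off the GTPase Rap1, was at 8.90, 7.91 and 8.59 against 7.61, 7.68 and 7.51 (0.87 ± 0.25, limma adjusted p = 0.331).

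**Figure D2:**
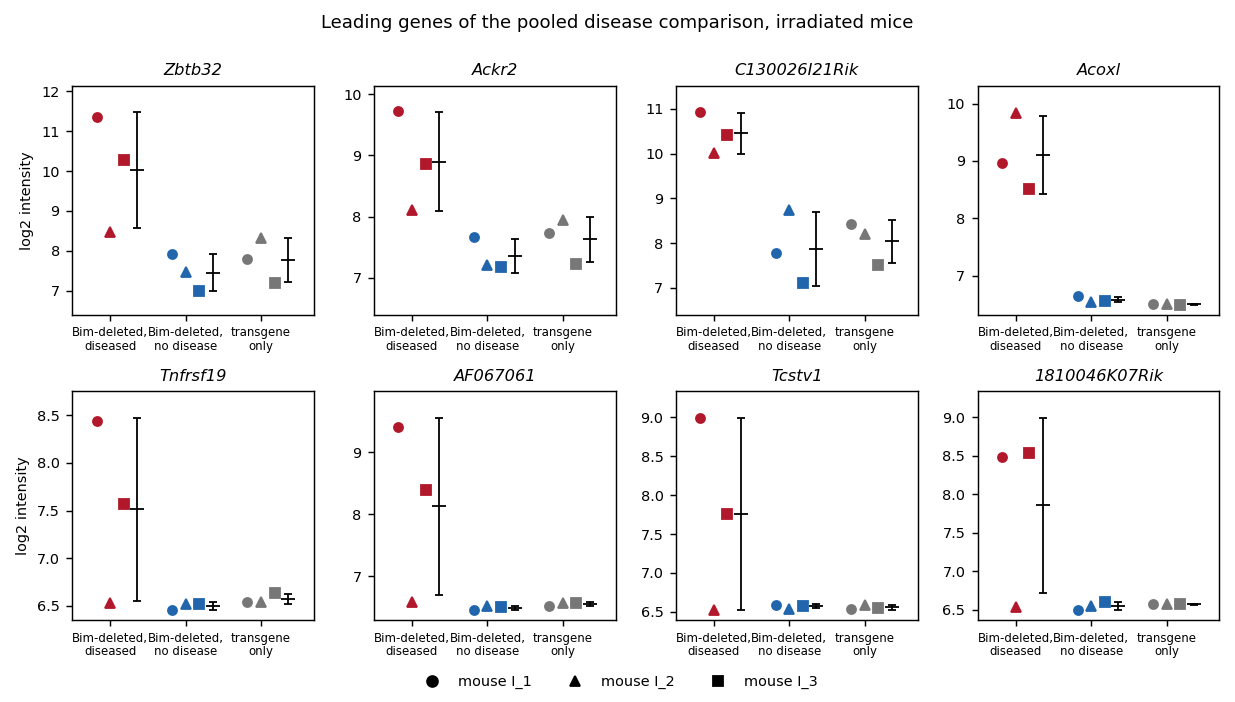
Log2 intensity of 8 leading genes of the pooled comparison in the 9 irradiated mice, with the group mean ± SD (n = 3). Diseased mouse I_2 (triangle) is at background in the 4 lower panels and lowest of the diseased mice for Zbtb32 and Ackr2, but is the highest for Acoxl.

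Among the genes of that pooled list that were lower, Per1, a core clock repressor, was at 7.36, 8.30 and 7.97 against 8.77, 8.31 and 8.52 (-0.66 ± 0.25, limma adjusted p = 0.467). Arrb2, a beta-arrestin that desensitises receptors, was at 8.17, 8.81 and 8.95 against 9.52, 9.12 and 9.22 (-0.64 ± 0.22, limma adjusted p = 0.399). Cdk5r1, an activator of Cdk5, was 0.71 lower (limma adjusted p = 0.198), Gadd45g, a stress-induced gene, 0.61 lower (0.352) and Itprip 0.60 lower (0.274). Trps1, a GATA-type repressor, Ntn5, Rab27a, which acts in granule release, Map11, Abcb1b, a drug efflux pump, and Mdm2 differed by -0.60 to -0.17, with limma adjusted p from 0.412 to 0.837. Marco, with which macrophages of the marginal zone bind bacteria, was 0.43 higher with overlapping groups (limma adjusted p = 0.735).

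The levels of the genes that define the model do not check the labels. For Ccnd1 no mouse without the transgene was measured. Ccnd1 was at 10.25, 9.74 and 10.57 in the diseased, 9.62, 10.86 and 10.24 in the non-diseased and 10.14, 10.33 and 10.15 in the transgene-only irradiated mice. The disease difference was -0.05 (95% interval -0.86 to 0.76, exact permutation p = 1), and its sign turned when single mice were left out. Bcl2l11 was at 7.90, 7.73 and 7.62 in the non-diseased Bim-deleted mice and at 8.42, 8.30 and 7.88 in the transgene-only mice, whose lowest value lay inside the Bim-deleted range. In diseased mice it was at 8.73, 8.79 and 8.51, above all 6 others. The disease difference was 0.93 ± 0.23 (limma adjusted p = 0.238, exact permutation p = 0.1). A second probe gave 0.62, and 2 more, at or close to background, gave 0.02 and -0.03. The deletion is in B cells only, the RNA is of whole spleen, and the position of the probes relative to the deletion is not given in the sources used here, so the level does not test the deletion.

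Acoxl, which encodes an acyl-CoA oxidase-like protein and lies next to Bcl2l11 in the mouse genome, was at 8.96, 9.84 and 8.51 in diseased mice. All 6 other irradiated mice were at 6.49 to 6.64, close to the array median (2.52 ± 0.54, limma adjusted p = 0.171). Under SRBC alone Acoxl was at 8.24 ± 1.54 in diseased (SD, n = 3) and 7.25 ± 0.85 in non-diseased mice (n = 2).

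Of 15 measured BCL2 family genes 0 passed and 10 were higher (48.2% of all features were higher), with a median difference of 0.11. The median ranged from -0.01 to 0.12 over 18 alternatives and was 0.07 without diseased I_1. An unadjusted p under 0.05 was reached by 2, both higher (4.61% of all features were higher at that level). After Bcl2l11 the smallest p was that of Bcl2, the anti-death member that Bim neutralises. It was at 8.61, 8.31 and 8.50 against 7.83, 7.62 and 8.19, with separate groups (0.59 ± 0.20, limma adjusted p = 0.396). Under SRBC alone the Bcl2 difference was -0.06.

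Of 13 D-type cyclins, partner kinases and inhibitors 0 passed, 8 were higher and the median difference was 0.07, or -0.01 without diseased I_1. Ccnd2, a D-type cyclin induced by B cell receptor signalling, was at 9.22, 9.29 and 9.85 in the diseased and at 8.43, 8.54 and 8.28 in the non-diseased mice. The groups did not overlap, and the transgene-only mice lay between them at 8.88, 8.79 and 8.61 (1.04 ± 0.23, limma adjusted p = 0.171). Cdkn1c, an inhibitor of cyclin-dependent kinases, was 0.48 lower (limma adjusted p = 0.457), with separate groups.

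The next question was whether the disease difference was the same under irradiation as under SRBC alone. The mice of the 2 stimuli are different animals, so their differences share no control. Under SRBC alone the sex-linked genes followed disease. Eif2s3y was at 6.44 ± 0.04 (SD, n = 3) in diseased and at 8.14 ± 0.30 (n = 2) in non-diseased mice. Xist was at 8.21 ± 0.45 and 6.45 ± 0.04 in the same order. Disease and the sex-linked pattern therefore cannot be told apart in any difference under SRBC alone. The test of the difference between the disease effects called 0 of 20463 features (0% called), with 962 at an unadjusted p under 0.05 (4.70%) and a smallest limma adjusted p of 0.544. Under SRBC alone, disease itself called 2 features higher (0.00977%) and 1 lower (0.00489%), with 2781 at an unadjusted p under 0.05 (13.6%). The 3 were Wdfy1, an unnamed probe that also rose under irradiation, and Casp9. Across all features the 2 disease differences correlated at 0.378, a description over genes that share arrays and cell composition. Of the 12 features called under irradiation 11 were higher with disease under SRBC alone as well, some by amounts within their SE of 0 or close to it. Over all features 12335 of 20463 had the same sign under both stimuli, and 45.6% were higher with disease under SRBC alone.

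The 9 named genes varied in their difference under SRBC alone. Wdfy1 was 1.09 ± 0.16 higher there, Twsg1 1.06 ± 0.19 and Cyp11a1 0.88 ± 0.15, each close to its value under irradiation. The difference of differences had a 95% interval of -0.49 to 0.43 for Wdfy1, -0.38 to 0.73 for Twsg1 and -0.23 to 0.63 for Cyp11a1. Atxn1 stood at -0.08 ± 0.09 under SRBC alone, Zcchc17 at 0.04 ± 0.08, Plin3 at 0.09 ± 0.07, Cdk14 and Tbc1d22a at 0.17 each, and Krt18 at 0.29 ± 0.09. The difference of differences was 0.69 ± 0.13 for Atxn1 (limma adjusted p = 0.544), 0.53 for Cdk14 (adjusted p = 0.973) and 0.42 for Zcchc17 (adjusted p = 0.973). None passed over all features, so no gene of the 9 was shown to differ between the stimuli in its response to disease. For Atxn1 the mean was 7.16 in diseased (n = 3) and 7.24 in non-diseased mice (n = 2) under SRBC alone, against 7.56 and 6.95 under irradiation.

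**Figure D3:**
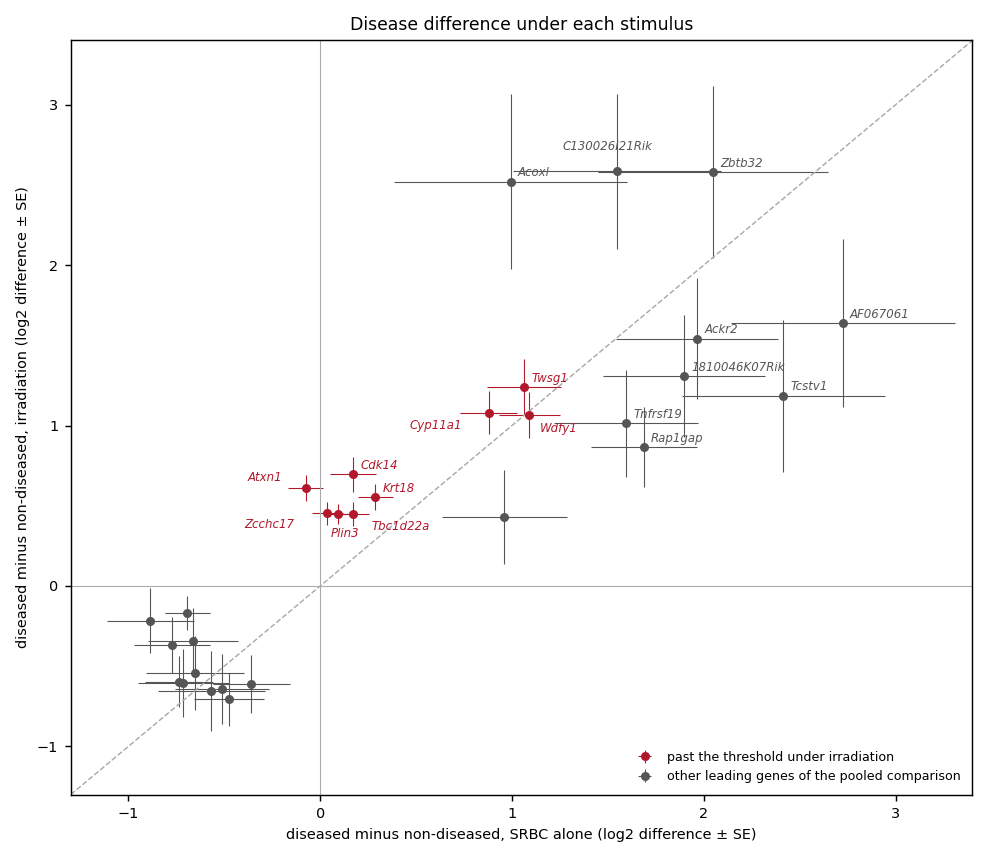
Disease difference under irradiation (y axis) against the disease difference under SRBC alone (x axis), each as log2 difference ± SE, for the 9 named genes past the threshold under irradiation (red) and the other leading genes of the pooled comparison (grey); the dashed line marks equal differences. Wdfy1, Twsg1 and Cyp11a1 lie close to the line near 1, whereas Atxn1, Cdk14, Zcchc17, Plin3, Tbc1d22a and Krt18 lie above it, between -0.08 and 0.29 on the x axis.

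Casp9, the initiator caspase of the mitochondrial death pathway, and Samd4, an RNA-binding translational repressor, had the next smallest p in the same test. Casp9 was at 8.57, 8.33 and 9.11 with disease and 8.25, 8.85 and 9.06 without it under irradiation, a difference of -0.05 whose sign depended on single mice. Under SRBC alone it was at background in diseased mice, at 6.49 ± 0.03 (SD, n = 3), and at 8.52 ± 0.34 in non-diseased mice (n = 2). The difference of differences was 1.98 ± 0.36 (limma adjusted p = 0.544). Samd4 differed by -0.09 under irradiation and by 0.39 under SRBC alone (difference -0.49 ± 0.09, limma adjusted p = 0.544).

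Among 38 gene lists, chosen with earlier results of these data known, 37 held 0 members past the test, and the other was the list of pooled leaders. The lists are therefore described by how many of their members were higher or lower and by the median difference, beside a median of -0.0028 over all features. Of all features 48.2% were higher with disease. At an unadjusted p under 0.05 the shares were 4.61% higher and 4.01% lower. Medians of whole lists can follow 1 mouse, and values without single mice are given for several lists.

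Every one of the 9 measured B-1a cell markers was higher with disease, and in 5 of 9 the groups did not overlap (6.57% of all features), with a median difference of 0.49. B-1a cells renew themselves outside the bone marrow and carry the surface protein CD5, whose gene Cd5 was not analysed here. The list includes Zbtb32, chosen with the disease pattern known. Fcrl5, an Fc receptor-like protein of B-1 and marginal zone B cells, was at 8.18, 7.56 and 7.95 against 7.08, 6.87 and 6.89 (0.95 ± 0.23, limma adjusted p = 0.224). Cd9, a tetraspanin of B-1, marginal zone and plasma cells, was at 10.07, 10.49 and 9.94 against 9.18, 8.85 and 9.10 (1.13 ± 0.30, limma adjusted p = 0.274). Bhlhe41, which encodes a helix-loop-helix repressor needed by B-1a cells, lay near background in both groups and differed by 0.10. The mean level of the list, relative to each gene's mean over the 22 mice, was 0.21 to 0.49 in the diseased and -0.45 to -0.26 in the non-diseased mice. The median was 0.60 without diseased I_1, 0.29 without non-diseased I_3, 0.27 with every probe as a feature and 0.38 under SRBC alone.

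Follicular and germinal centre B cell markers had 0 members past the test, and the levels of both lists overlapped between the disease groups. Follicular markers had a median of -0.27, with 3 of 5 members lower, 2 of them at an unadjusted p under 0.05 (4.01% of all features). Fcer2a, the low-affinity IgE receptor CD23, was at 7.32, 8.42 and 9.63 against 10.09, 8.97 and 11.31 (-1.66 ± 0.70, limma adjusted p = 0.528). Cr2, the complement receptor CD21 of follicular and marginal zone B cells, was at 6.81, 6.75 and 6.92 against 7.17, 7.13 and 7.48, with separate groups (-0.44 ± 0.14, limma adjusted p = 0.362). Of 8 germinal centre markers 6 were lower, with a median of -0.25. By mouse that list was at 0.84 in non-diseased I_2, at -0.12 and -0.16 in the other non-diseased mice and at -0.39 to 0.09 in the diseased mice, and without non-diseased I_2 the median was 0.02. Bcl6, the master repressor of germinal centre B cells, was at 7.96, 9.10 and 9.19 against 9.30, 10.54 and 9.62 (-1.07 ± 0.38, limma adjusted p = 0.415). S1pr2, which confines B cells to the germinal centre, was at 11.31 in non-diseased I_2 and at 7.96 to 8.81 in the other 5 mice. Among the pan-B genes Fcrla, an intracellular Fc receptor-like protein, was 0.89 higher and Cd22, an inhibitory co-receptor, 0.72 lower (limma adjusted p = 0.638 and 0.682).

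T cell markers were lower in all 14 measured members, as were 10597 of all 20463 features, with a median of -0.54. Of the 14 genes 0 passed the test and 1 was lower at an unadjusted p under 0.05 (4.01% of all features). In 2 of the 14 all diseased mice lay below all non-diseased mice, as in 6.68% of all features. Satb1, a chromatin organiser of T cells, was at 7.51, 9.91 and 10.19 against 11.003, 10.20 and 11.25 (-1.61 ± 0.60, limma adjusted p = 0.460). Cd3d, a chain of the T cell receptor complex, was at 8.04, 9.76 and 10.16 against 10.89, 10.43 and 9.25, with overlapping groups (-0.87 ± 0.64, limma adjusted p = 0.769). The mean level of the list was -1.05 in diseased I_1, -0.20 in I_2 and 0.09 in I_3, and -0.34 to 0.50 in the non-diseased mice. Without diseased I_1 the median was -0.18. Homing chemokines and trafficking receptors followed the same mouse, with a median of -0.27 over 11 members and -0.06 without it. Ccl21a, the chemokine of the T cell zone, was at 7.79 in diseased I_1 and at 10.59 to 12.17 in the other 5, and Cxcl12 at 8.27 in I_1 and 10.74 to 11.20 in the others.

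**Figure D4:**
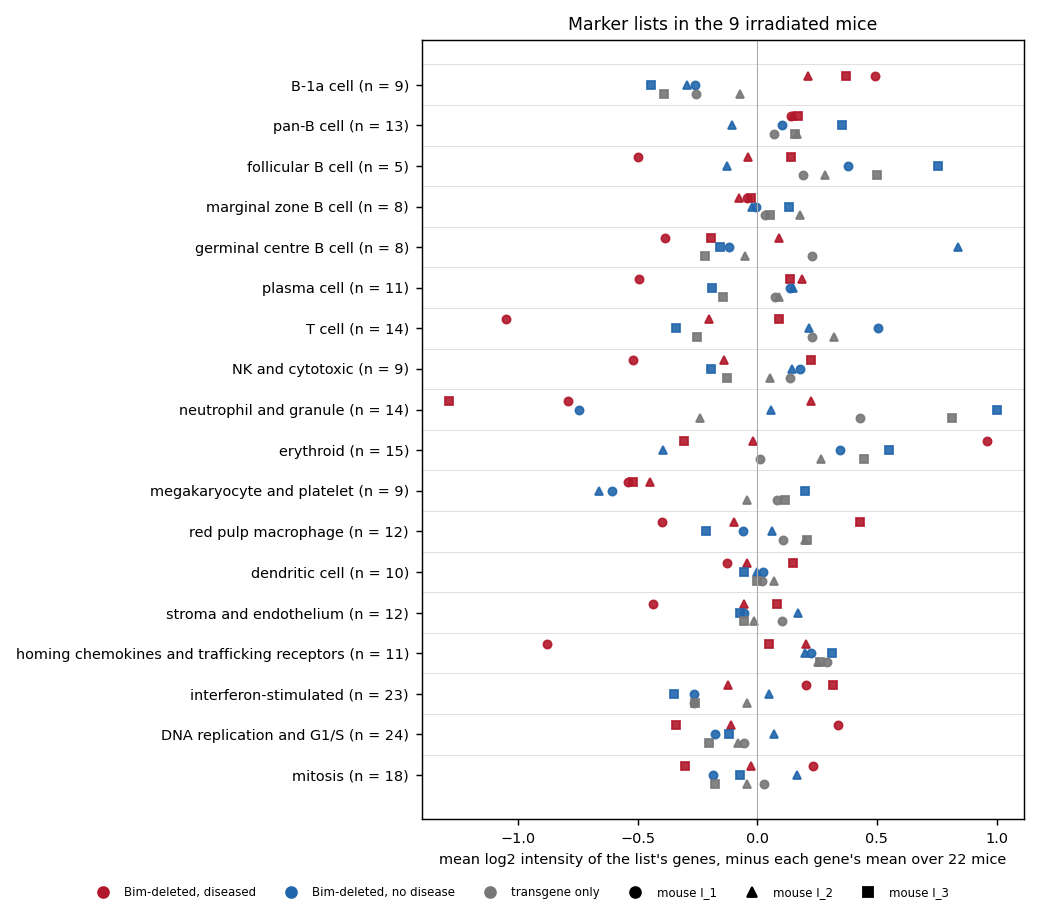
Mean log2 intensity of 18 gene lists in each of the 9 irradiated mice, relative to each gene's mean over the 22 mice; colour gives the group and the symbol the mouse number, and n is the number of measured genes. The B-1a list separates the 3 diseased mice from the other 6, whereas diseased mouse I_1 (red circle) is alone at the low end for T cell genes and homing chemokines.

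Interferon-stimulated genes were higher in 19 of 23 members (48.2% of all features were higher), with a median of 0.21. Of the 23 genes 0 passed the test and 3 were higher at an unadjusted p under 0.05 (4.61% of all features). Ifi27l2a was at 11.17, 11.58 and 11.68 against 10.80, 11.22 and 10.64 (0.59 ± 0.22, limma adjusted p = 0.442). Oasl2, a relative of the OAS RNA sensors, was at 8.44, 7.84 and 8.03 against 7.19, 7.48 and 7.31 (0.77 ± 0.30, limma adjusted p = 0.469). Gbp3, a guanylate-binding GTPase, was 0.82 higher (limma adjusted p = 0.502). Under SRBC alone the list's median was 0.19.

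All 10 immunoproteasome and peptide loading genes were higher (48.2% of all features were higher), with a median of 0.31 against -0.04 under SRBC alone. Of the 10 genes 0 passed the test and 1 was higher at an unadjusted p under 0.05 (4.61% of all features). In 0 of the 10 were the groups separate. Psme2, a proteasome activator subunit, was at 8.55, 8.17 and 8.47 against 7.89, 8.20 and 7.77 (0.44 ± 0.15, limma adjusted p = 0.399). Psmb8, a catalytic subunit, was 0.66 higher (limma adjusted p = 0.650). Psmb9, another catalytic subunit, was at 2 levels that crossed the groups, at 7.13 and 7.06 in non-diseased I_1 and I_3 and 7.71 in diseased I_3, and at 10.20 to 10.70 in the other 3. H2-Aa, a chain of MHC class II encoded in the same region, split the same mice, at 6.81, 6.97 and 6.89 against 10.44 to 10.89. These genes were named for that pattern after their values were seen.

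The p53 list showed no common direction: of 21 genes 9 were higher and 12 lower, with a median of -0.02, 0 past the test, 4 higher and 1 lower at an unadjusted p under 0.05. At that level 4.61% of all features were higher and 4.01% lower. The differences of the list ranged from -0.74 to 0.53. The 4 higher genes had its smallest p and are named for that, while the lower gene is not named. Ccng1, cyclin G1, was at 10.09, 10.04 and 9.99 against 9.43, 9.70 and 9.42, with separate groups (0.53 ± 0.14, limma adjusted p = 0.276). Zmat3, an RNA-binding tumour suppressor, was 0.35 higher (adjusted p = 0.362), Cdkn1a, the inhibitor p21, 0.49 higher (0.482) and Phlda3, a repressor of AKT, 0.29 higher (0.521). Under SRBC alone these 4 differed by -0.06, -0.05, -0.02 and -0.11. The difference of differences was 0.58 for Ccng1 and 0.40 for Zmat3 and did not pass (limma adjusted p = 0.973 each). Mdm2, the ubiquitin ligase that restrains p53, was 0.17 lower with overlapping groups. Of 19 DNA damage and repair genes 9 were higher and 10 lower (median -0.01), and Parp1, which senses strand breaks, was 0.47 lower with separate groups (limma adjusted p = 0.353).

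Proliferation and erythroid genes had list medians near 0 under irradiation and above 0 under SRBC alone, with 0 members past the test under either stimulus. DNA replication and G1/S genes had a median of 0.01 over 24 members (14 higher, 10 lower) against 0.90 under SRBC alone. Mitosis genes had a median of -0.01 over 18 members against 0.79, and erythroid genes of -0.0009 over 15 members against 2.03. Without diseased I_1 these medians under irradiation were -0.12, -0.10 and -0.27. Mcm2, a subunit of the replicative helicase, was at 9.60, 9.41 and 8.96 against 9.56, 9.67 and 9.69, a difference of -0.32 under irradiation and of 1.01 under SRBC alone. Car2, a carbonic anhydrase of red cells, differed by 0.46 and by 3.18 in the same order, and without diseased I_1 by -0.11 under irradiation. The difference of differences was -1.33 for Mcm2 and -2.71 for Car2, and 0 members of these 3 lists passed that test over all features. By mouse the erythroid list was at 0.96 in diseased I_1, -0.02 in I_2 and -0.31 in I_3, and from -0.39 to 0.55 in the non-diseased mice. Cell cycle genes followed the same order in the diseased mice, at 0.34, -0.11 and -0.34 for replication. Under SRBC alone the erythroid list was at 0.75, 1.01 and 1.04 in diseased and at -0.63 and -1.40 in the 2 non-diseased Bim-deleted mice. Both of these non-diseased mice lay below every irradiated mouse. The transgene-only mice under SRBC alone were at -0.06, -1.48 and -1.91. Among replication and mitosis genes, Tyms and Aurkb were 0.30 and 0.31 higher, with overlapping groups.

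Neutrophil and granule genes were lower in 13 of 14 members, with a median of -0.81 but a spread of the list from -1.29 to 0.23 in diseased and from -0.75 to 1.002 in non-diseased mice. Elane and Prtn3, granule proteases, and Lcn2, an iron-binding granule protein, were 0.95, 1.05 and 0.84 lower, with limma adjusted p of 0.852, 0.867 and 0.871. Under SRBC alone the median was 0.65, in the other direction, and 0 of these genes passed the test of the difference. Among the inflammatory chemokines that Ackr2 binds, Ccl17 was at 6.99, 6.51 and 7.13 against 6.49, 6.42 and 6.51 (0.40 ± 0.12, limma adjusted p = 0.352), with diseased I_2 at background. The core clock list was lower in 10 of 13 members (10597 of all 20463 features were lower), with a median of -0.06. At an unadjusted p under 0.05, 4 of the 13 were lower (4.01% of all features). Per2, a clock repressor, was 0.20 lower (limma adjusted p = 0.548). The time of day of tissue collection is not given in the labels.

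**Figure D5:**
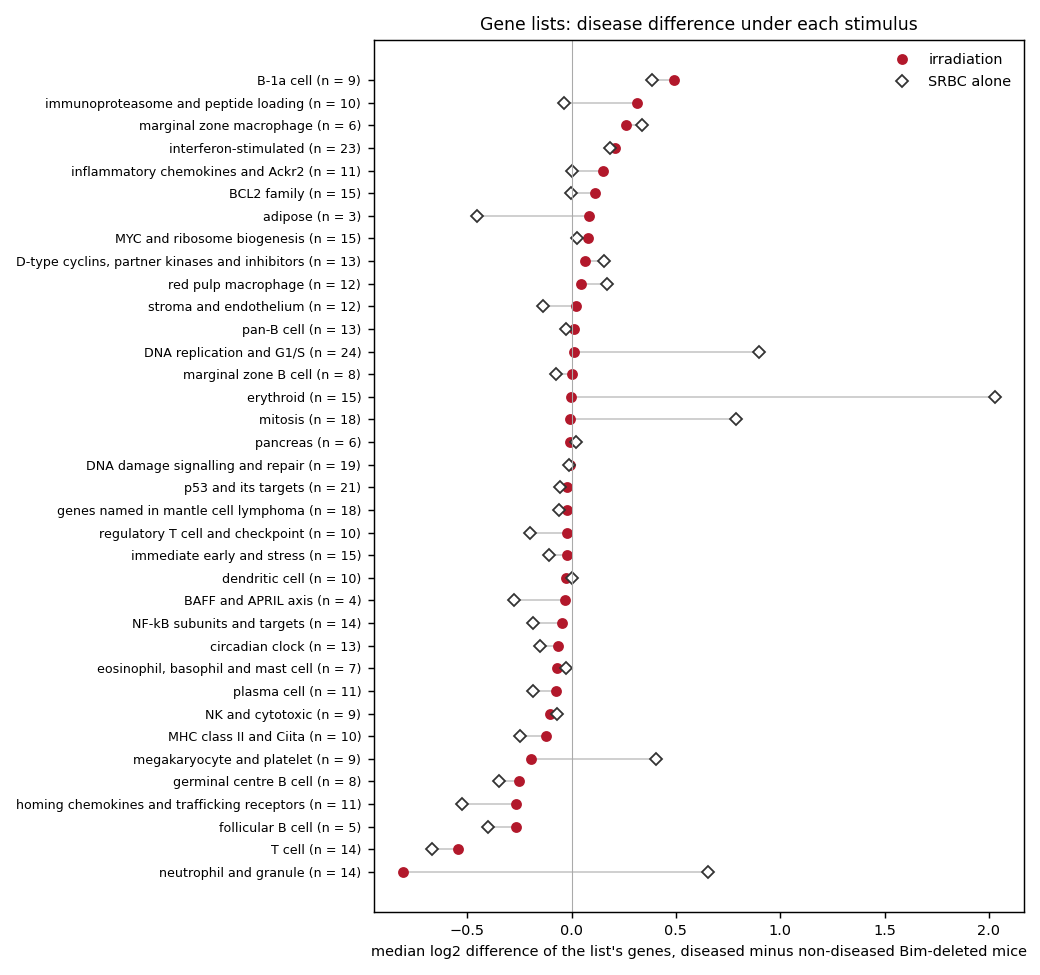
Median log2 difference, diseased minus non-diseased Bim-deleted mice, of gene lists under irradiation (filled circles, 3 against 3 mice) and under SRBC alone (open diamonds, 3 against 2 mice); n is the number of measured genes. B-1a markers lie right of 0 and T cell markers left of 0 under both stimuli, whereas erythroid, replication and mitosis genes lie near 0 under irradiation and right of 0 under SRBC alone, and neutrophil genes change side.

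The irradiated mice with intact Bim gave a second disease-free reference, which shares the diseased mice with the comparison above. Against them 17 features were higher (0.0831% called) and 3 lower (0.0147%), with 2632 at an unadjusted p under 0.05 (12.9%). The largest called rises among named genes were Twsg1 (1.31), Cyp11a1 (1.13), Wdfy1 (1.07), Nipal3 (0.69) and Fgd6 (0.65), with limma adjusted p from 0.0121 to 0.0461. Of the 9 named genes Cdk14 missed the threshold in this comparison (0.57, limma adjusted p = 0.0556). Nipal3, of a family of magnesium transporters, was at 7.85, 7.67 and 7.67 in diseased, 7.66, 7.41 and 7.31 in non-diseased Bim-deleted and 7.06, 7.07 and 6.99 in transgene-only mice. The difference was 0.27 from the non-diseased Bim-deleted mice (limma adjusted p = 0.551) and 0.69 from the transgene-only mice. The lowest diseased mouse, at 7.667, was barely above the highest non-diseased Bim-deleted mouse, at 7.661. The transgene-only mice lay below both groups. Fgd6 was at 8.17, 8.14 and 7.77 in diseased mice and at 7.27 to 7.58 in the other 6.

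The 3 falls were in Gtf3c1, a subunit of the RNA polymerase III factor TFIIIC (-0.58, limma adjusted p = 0.0351), Rbak, a KRAB zinc-finger protein (-0.38, 0.0459), and Acot11, an acyl-CoA thioesterase (-0.34, 0.0459). Gtf3c1 was at 7.28, 7.42 and 7.24 in diseased, 7.59, 7.70 and 7.71 in non-diseased Bim-deleted and 7.86, 7.81 and 7.99 in transgene-only mice, so the groups were in that order with no overlap. Against the non-diseased Bim-deleted mice its difference was -0.36 (limma adjusted p = 0.244).

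Without disease, Bim-deleted and transgene-only irradiated mice differed in 0 features by limma (0% called), with 537 at an unadjusted p under 0.05 (2.62%). The smallest p belonged to Cemip2, a cell surface hyaluronidase-like protein, at 7.26, 7.68 and 7.64 against 8.19, 8.16 and 8.54 (-0.77), Hyi (-0.71) and Tceanc2 (0.32), with limma adjusted p of 0.9999 for each. In Twsg1, Wdfy1 and Cyp11a1 these disease-free groups differed by 0.07, 0.01 and 0.05, against disease differences of 1.06 or more.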

How the data were processed

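Spleen RNA of 22 mice was measured on 1-colour Illumina bead arrays, 1 array per mouse. The deposited values used are log2 intensities. The value distribution was identical on every array (median 6.55, maximum 14.40), so the authors had normalized between arrays; that the base is 2 was inferred from the range, and neither software nor background correction is given in the sources used. A table of unnormalized values has 44 per-sample columns that could not be tied to mice, and it was left out. Of 45281 probes 34885 had 1 gene symbol in the platform annotation, 18 several and 10378 none, and symbols were kept as annotated unless the reference table updated them.

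A probe was kept if on 7 or more of the 22 arrays it exceeded the array's 40th percentile (30013 probes). Where a gene had more than 1 probe, that with the highest mean stood for it, which left 20463 features, 14500 of them named. A limma model (limma 3.58.1, R 4.3.3) with 9 group means over all mice, 13 residual degrees of freedom, gave moderated two-sided tests, adjusted by Benjamini-Hochberg over all features, threshold 0.05. Group sizes were 3 diseased, 3 non-diseased and 3 transgene-only irradiated mice, 3, 2 and 3 under SRBC alone and 1, 2 and 2 under SRBC with pristane. The design text counts 7 transgene-only mice and the titles 8. The labels call the samples separate mice.

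Named were all named genes past the threshold (at most 15 each way), the 5 smallest p in a direction with under 5 calls, the 3 smallest p for the difference of disease effects and for disease-free mice, the 5 largest calls each way against transgene-only mice, Ccnd1, Bcl2l11, the pooled leaders and up to 4 members per list by smallest p; others are said to be chosen after their values were seen. The comparison and the 38 lists (461 of 540 entries measured) were chosen with earlier results of these data known. Title numbers were not treated as pairs. Among irradiated mice, deviations of same-numbered diseased and non-diseased mice correlated at -0.21, 0.08 and -0.20. Those of diseased and transgene-only mice correlated at -0.16, -0.09 and -0.08. Those of non-diseased Bim-deleted and transgene-only mice correlated at -0.05, 0.19 and 0.40. In simulated data with 200 of 20463 features changed, the disease test recovered 59.7%, 94.0% and 95.5% of changes of 0.5, 1 and 2 log2 units, with 8 false calls of 174, and made 0 calls with no change. The simulated noise was normal, independent between features and of equal spread in all mice. It held no array that stood apart, as that of diseased I_1 did, so these rates need not hold for the real data. Intervals are 95%.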

Additional observations from a re-analysis of the deposited data

How the results depend on the processing

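The count of 12 features was 6 with the Eif2s3y level as a covariate (4 shared with the 12; chosen after seeing the data), 19 without the 5 pristane mice (11 shared), 0 with only the 6 mice, and 0 to 41 when each mouse was left out. It stayed between 8 and 15 under the other 9 alternatives, 8 with the Xist level as a covariate and 15 with the title number as replicate block. Against transgene-only mice the count of 20 was 9 with no probe filter, 11 with a filter of 3 arrays, 47 at the 60th percentile, 5 with trend and robust settings, 142 with array weights, 32 with the replicate block, 8 with Xist, 10 with Eif2s3y and 41 with the erythroid list as covariate, 37 without the pristane mice, and 0 to 64 when each mouse was left out (0 without diseased I_1, transgene-only I_1 or I_3). For the difference of disease effects the count of 0 became 0 to 2, and for disease-free mice 0 to 1, when each mouse was left out. The cause of these shifts was not tested. The disease difference in Casp9 was 0.020 and in Ccnd1 0.061 with array weights. Leaving out each mouse gave -0.28 to 0.12 for Casp9, -0.36 to 0.26 for Ccnd1, -0.11 to 0.76 for Car2 and -0.047 to 0.30 for Hyi. Genes near the array median are limited by signal over background.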
